A study of Mus musculus with 4 samples.

Results

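The Rab GTPases were examined in bulk RNA-seq of beta cells sorted from mouse islets. They were chosen by gene name: every gene called Rab followed by a number, with at most a letter and a digit after it, which gave 59 of the 31017 gene names in the count tables. Both groups came from islets of wild type C57BL/6J males aged 10 weeks, kept in culture overnight, dissociated and sorted for surface CD63, and no group carried a transgene or a treatment. The CD63 high group and the CD63 low group had 2 libraries each. Labels do not say whether islets of several mice were pooled, whether replicates came from separate mice or sorts, or which gate besides CD63 defined a beta cell. The p-values below therefore measure only the spread between these libraries, which may be technical.

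Rab proteins are small GTPases that mark the membranes of the secretory and endocytic pathways. Each switches between a GDP-bound form held in the cytosol and a GTP-bound form on the membrane, where it recruits effectors for budding, transport, tethering and fusion. Exchange factors load GTP, activating proteins speed its hydrolysis, and a lipid anchor added with the help of escort proteins holds the GTPase on the membrane. In beta cells the Rab3 and Rab27 groups are known for the docking and release of insulin granules.

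Total counts were 29249270 to 35003307 per library. Levels are given as CPM, counts per 1000000 counts of a library after TMM scaling. The sorting marker's own transcript, Cd63, reached 1974 and 2077 CPM after the high sort and 1186 and 1120 CPM after the low sort (log2 fold change 0.81, SE 0.19, edgeR adjusted p 0.0484), which checks the labels and is no finding. All 12 beta cell markers had counts in every library, with a median log2 fold change of -0.57. In CD63 high cells 4 of them fell, Mafa, Slc2a2, Slc30a8 and Glp1r, with log2 fold changes of -1.51 to -1.06. Nkx6-1, Pdx1 and Ucn3 were lower and G6pc2 was higher in CD63 high without overlap, and none of these passed. The summed level of the 12, mostly of the insulins, ranged from 536050 to 620619 CPM in CD63 high and from 483676 to 676043 CPM in CD63 low libraries. Markers of other cells moved with the groups. Of 23 markers of macrophages and other myeloid cells 19 rose in CD63 high cells, with sums of 342 and 1432 CPM in CD63 high replicates 1 and 2 and 57.8 and 91.4 CPM in CD63 low replicates 1 and 2, and none of the 23 was at 0 in both CD63 low libraries. Among tested markers 2 of 9 rose for alpha, 3 of 3 for delta, 3 of 3 for gamma, 3 of 10 for acinar and 1 of 8 for duct cells, and none of 3, 2 and 1 passed for endothelial cells, fibroblasts and lymphocytes. In CD63 high against CD63 low libraries the sums ranged from 5626 to 6284 against 746 to 798 CPM for alpha, from 452 to 889 against 43.8 to 73.4 CPM for delta, from 2334 to 4113 against 279 to 559 CPM for gamma, from 760 to 1317 against 22.3 to 296 CPM for acinar and from 2188 to 3531 against 1292 to 1345 CPM for duct markers. Most of the alpha difference was Gcg (4987 and 5646 against 179 and 287 CPM), and most of the duct difference was Spp1 (2007 and 913 against 129 and 118 CPM). The alpha markers Slc7a2 and Peg3 and the duct marker Krt7 were lower in CD63 high without overlap and did not pass. The duct marker Cftr, the endothelial markers Cdh5 and Tie1, the fibroblast marker Pdgfra and the lymphocyte markers Cd3e, Cd3d, Cd3g, Cd2 and Ms4a1 had no count in any library. In bulk RNA, a change in the number of cells of a type and a change in RNA per cell cannot be told apart.

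Few Rab genes differed between CD63 high and CD63 low cells beyond the spread of the libraries. Of the 59 genes, 53 passed the filter on low counts and were tested, and 3 of them passed an adjusted p of 0.05 in edgeR's quasi-likelihood test. Rab7b (14.7-fold) and Rab32 (5.50-fold) rose in CD63 high cells, both GTPases of late endosomes and lysosome-related organelles, and Rab37 fell, a GTPase of secretory granules that was 2.08-fold higher in CD63 low cells. Over all 13241 tested genes 2.79% were called, 2.5% higher and 0.287% lower, and the members' 3 of 53 (5.66%), with 2 of 53 higher and 1 of 53 lower, are too few genes to set the family apart. The median log2 fold change (CD63 high over CD63 low) of the 53 was -0.09, against -0.01 over all tested genes, and 31 of the 53 lay below 0. By the other analyses, 3 Rab genes were called with RLE size factors, where 3.03% of all tested genes were, 3 with a robust dispersion fit (2.19%), 3 with the replicate number as a block (4.65%), 4 with DESeq2 (5.18%), 4 with no filter on low counts (5.12%), 1 with limma-voom (2.14%), 1 among genes with a mean of at least 100 counts (2.67%), and 0 with library size as the only scaling (0.506%). Without CD63 high replicate 1 there were 2 (3.72%), without CD63 high replicate 2 there were 0 (3.25%), without CD63 low replicate 1 there were 3 (5.5%), and without CD63 low replicate 2 there were 3 (3.77%). With the replicate numbers crossed, an analysis added after the data were seen, there were 5 (7.11%). The groups did not overlap for 12 members that were higher and 14 that were lower in CD63 high cells, or 22.6% and 26.4%, where 23.8% and 22.2% of all tested genes did so. Among the 12, Rab7b, Rab26 and Rab27b passed the filter on low counts only through their CD63 high libraries. The 6 untested genes were Rab15, Rab30, Rab33a, Rab38, Rab42 and Rab44, with 0 to 12 counts per library.

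**Figure D1:**
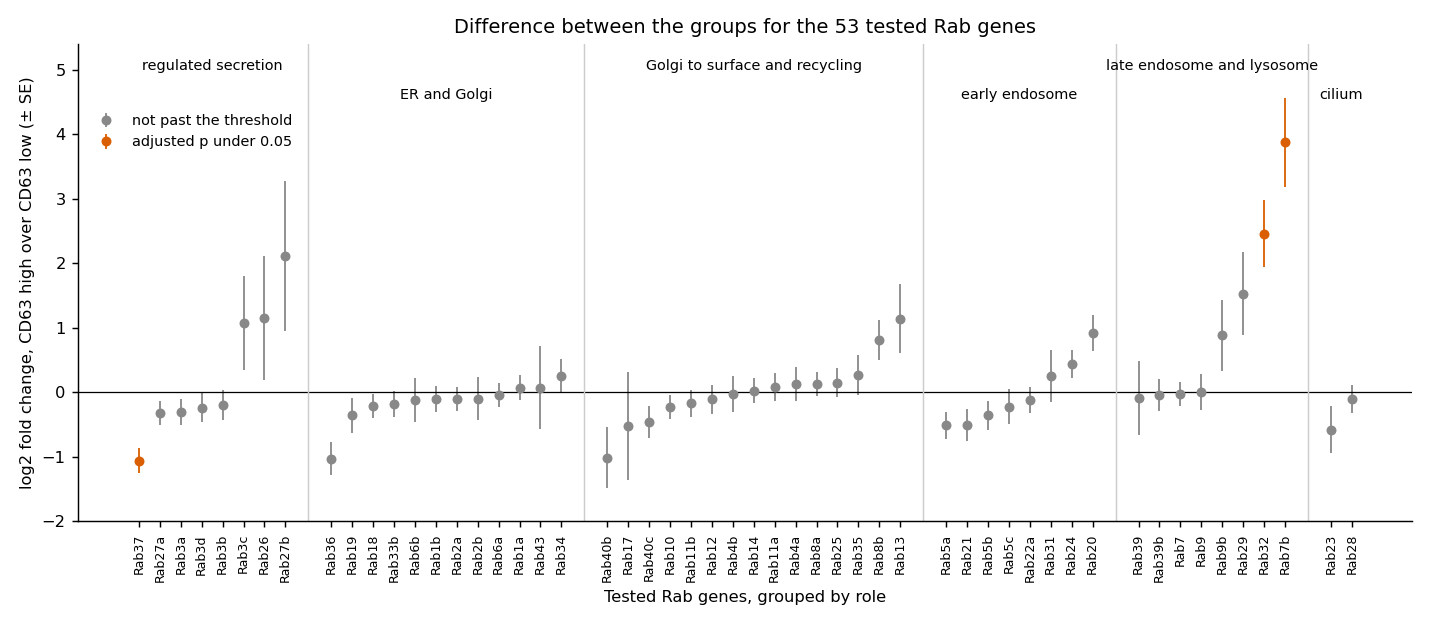
Log2 fold change (CD63 high over CD63 low, vertical axis) of each of the 53 tested Rab genes, grouped by role along the horizontal axis, with bars for the standard error of the fit. Rab37 at -1.06, Rab32 at 2.46 and Rab7b at 3.87 are drawn in orange for an adjusted p under 0.05, and the other 50 are grey.

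The family was well represented in these cells. Together its members made up 0.269% and 0.273% of the total after the high sort, against 0.273% and 0.331% after the low sort. For levels of different genes, CPM was divided by the exon length in kilobases. On this scale Rab2a, which works between the ER and the Golgi, stood highest, at 154 and 181 in the CD63 high pair and 177 and 182 CPM per kilobase in the CD63 low pair. Next came Rab1b (74.4 to 95.6), Rab7 (79.1 to 86.4) and Rab1a (73.9 to 87.5), of ER to Golgi transport, late endosomes and again ER to Golgi transport, whose ranges over the 4 libraries overlapped, so their order is not settled. Rab3a of secretory granules (39.8 to 56.0), Rab18 of the ER and lipid droplets (44.1 to 53.3) and Rab11a of recycling endosomes (41.3 to 56.1) formed the following group with overlapping ranges. Rab10, Rab3d and Rab25 completed the first 10, at 21.2 to 40.9 CPM per kilobase. These 10 genes held 67.9% to 70.0% of the summed length-scaled level of the family in each library. In the whole order, 54 of the 58 neighbouring pairs had overlapping ranges, and the breaks lay after Rab2a, Rab1a, Rab11a and Rab5b. The lower end was near the detection limit: Rab44, a large Rab known from granulocytes and mast cells, had 5 counts in CD63 high replicate 2 and 0 in the other libraries, where 0 counts allow a level of up to 0.0770 to 0.0989 CPM (3 counts, counting error only).

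**Figure D2:**
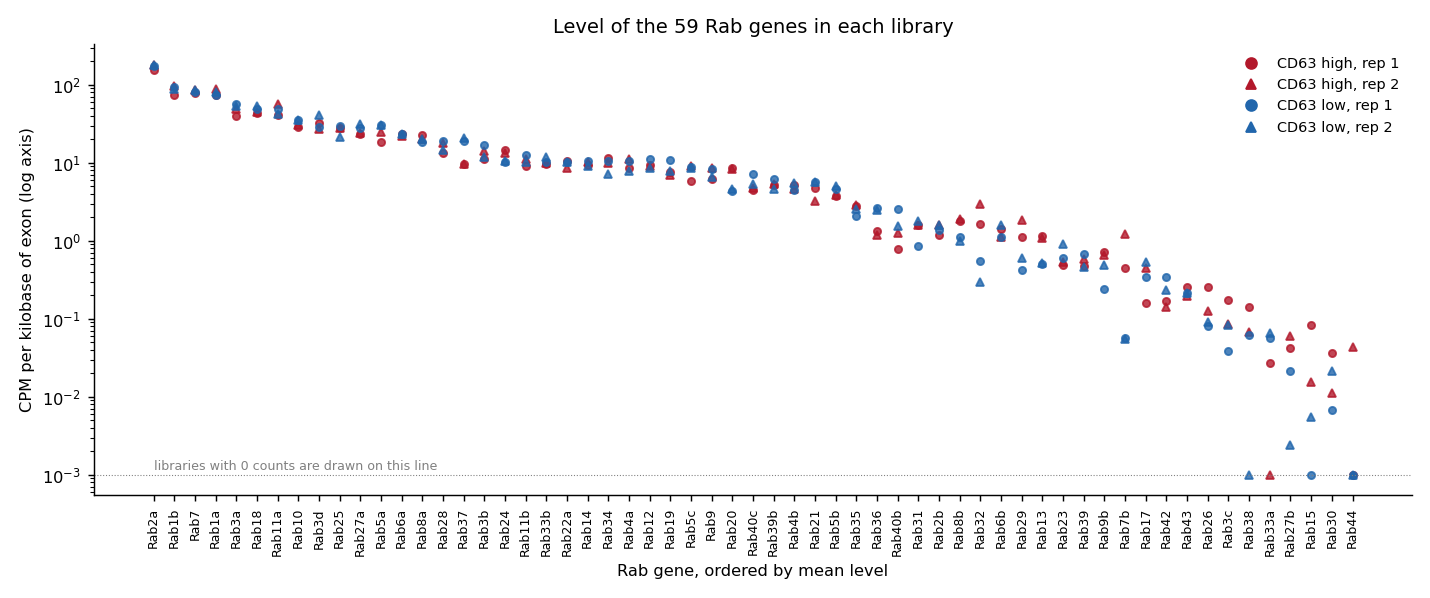
Level of the 59 Rab genes in CPM per kilobase of exon (log axis), 1 point per library, with CD63 high in red and CD63 low in blue. The genes run from Rab2a at 154 to 182 down to Rab44, and the libraries of both groups lie close together for most genes at the upper end, with Rab37 as an exception, while libraries with 0 counts sit on the dotted line.

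The GTPases of regulated secretion came first, since insulin granules depend on them. Rab37, found on secretory granules, was at 50.9 and 51.4 CPM in the CD63 high pair (replicates 1 and 2) and at 101 and 111 CPM in the CD63 low pair. Replicates lay close together and the groups stood far apart. It fell in CD63 high cells by 1.06 on the log2 scale (SE 0.19, edgeR adjusted p 0.0158). The beta cell markers Mafa, Slc2a2, Slc30a8 and Glp1r had log2 fold changes of -1.51 to -1.06. Any link between these falls and that of Rab37 was not tested. Rab37 lies on chromosome 11 (115091431 to 115162236, mm10, plus strand), and none of its exon bases is shared with another gene of the tables. The call missed the threshold when CD63 high replicate 1 (adjusted p 0.0546) or CD63 high replicate 2 (0.0613) was left out and with library size as the only scaling (0.10), while the log2 fold change stayed between -1.13 and -0.97 in each of 12 other analyses.

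The other granule GTPases with sizeable levels did not pass. Rab3a, the best studied Rab of regulated exocytosis, was at 88.7 and 110 CPM in the CD63 high pair and 125 and 120 CPM in the CD63 low pair (log2 fold change -0.30, SE 0.20, edgeR adjusted p 0.544). Rab27a, which docks granules through the effector granuphilin, was at 90.8 and 93.7 against 107 and 123 CPM (-0.32, SE 0.19, adjusted p 0.496). For both genes the groups did not overlap, with CD63 high lower. Rab3d, known from zymogen granules of exocrine cells as well as from endocrine granules, was at 134 and 113 CPM in the CD63 high pair and 120 and 171 CPM in the CD63 low pair (-0.24, SE 0.22, adjusted p 0.704), and Rab3b at 39.4 and 49.95 against 60.5 and 42.1 CPM (-0.20, SE 0.24, adjusted p 0.777). The libraries of these 2 genes overlapped between the groups. The values of Rab3a, Rab27a, Rab3b and Rab3d thus differed by less than the test could call, with standard errors of 0.19 to 0.24 on the log2 scale.

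The remaining 3 genes of regulated secretion were rare. Rab3c had 65 and 29 counts in the CD63 high pair and 14 and 39 counts in the CD63 low pair (log2 fold change 1.08, SE 0.73, adjusted p 0.556). Rab27b, the close relative of Rab27a, had 14 and 18 against 7 and 1 counts (2.12, SE 1.16, edgeR adjusted p 0.446), and Rab26, of synaptic and secretory vesicles, 23 and 10 against 7 and 10 counts. In CPM all 3 were higher in both CD63 high libraries without overlap, and none passed. The CD63 low counts of Rab27b and Rab26 lay below the level set by the filter on low counts. Rab27b and Rab26 were therefore tested only through their CD63 high libraries. Of the 8 granule GTPases, 3 were higher and 3 lower without overlap, where 23.8% and 22.2% of all tested genes were. In sum, 1 of the 8 tested granule GTPases fell, none rose and 7 stayed short of the threshold (0.287% of all tested genes fell and 2.5% rose), with the median at -0.22 on the log2 scale (-0.01 over all tested genes). Their summed level was 117 and 125 CPM per kilobase in the CD63 high pair and 149 and 160 CPM per kilobase in the CD63 low pair, or 13.4% and 12.7% against 15.01% and 16.2% of the family. Rab37 is part of these sums, and the sums were not tested.

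Rab7b and Rab32 made up both rises, and both belong to the late endosome and lysosome group. Rab7b, which acts in transport from late endosomes to the Golgi and is known from myeloid cells, had 65 and 157 counts in CD63 high replicates 1 and 2 and 8 and 10 counts in CD63 low replicates 1 and 2, or 2.07 and 5.67 against 0.264 and 0.257 CPM. With 8 and 10 counts, the CD63 low libraries lay below the level set by the filter on low counts. Rab7b was therefore tested only through its CD63 high libraries, where replicate 2 was 2.73 times replicate 1. The log2 fold change of Rab7b was 3.87 (SE 0.69, edgeR adjusted p 0.0148). Rab32, of lysosome-related organelles, mitochondria and phagosomes, was at 3.83 and 7.01 CPM in the CD63 high pair and 1.29 and 0.693 CPM in the CD63 low pair, from 120 and 194 against 39 and 27 counts. All CD63 high values were above all CD63 low values, again with replicate 2 the higher of the CD63 high pair. Rab32 had a log2 fold change of 2.46 (SE 0.52, edgeR adjusted p 0.0321). Rab7b lies on chromosome 1 (131688695 to 131715439, plus strand) and Rab32 on chromosome 10 (10545002 to 10558265, minus strand, both mm10), and neither shares exon bases with another gene of the tables.

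Both calls, though not the direction, depended on CD63 high replicate 2. Without CD63 high replicate 2 the log2 fold change was 2.98 for Rab7b (adjusted p 0.154) and 1.96 for Rab32 (0.126), and library size as the only scaling (0.0649 and 0.0956) and limma-voom (0.0741 and 0.0529) also ended both calls. The 23 myeloid markers summed to 4.18 times as much in CD63 high replicate 2 as in replicate 1, beside 2.73 times for Rab7b and 1.83 times for Rab32. Within CD63 low, replicate 2 had 1.58 times the marker sum of replicate 1, beside 0.974 times for Rab7b and 0.539 times for Rab32. Between the groups the mean marker sum was 11.9 times as high in CD63 high cells. What part myeloid cells had in the levels of Rab7b and Rab32 was not tested. Rab37 differed by 1.01 times between the same CD63 high libraries.

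**Figure D3:**
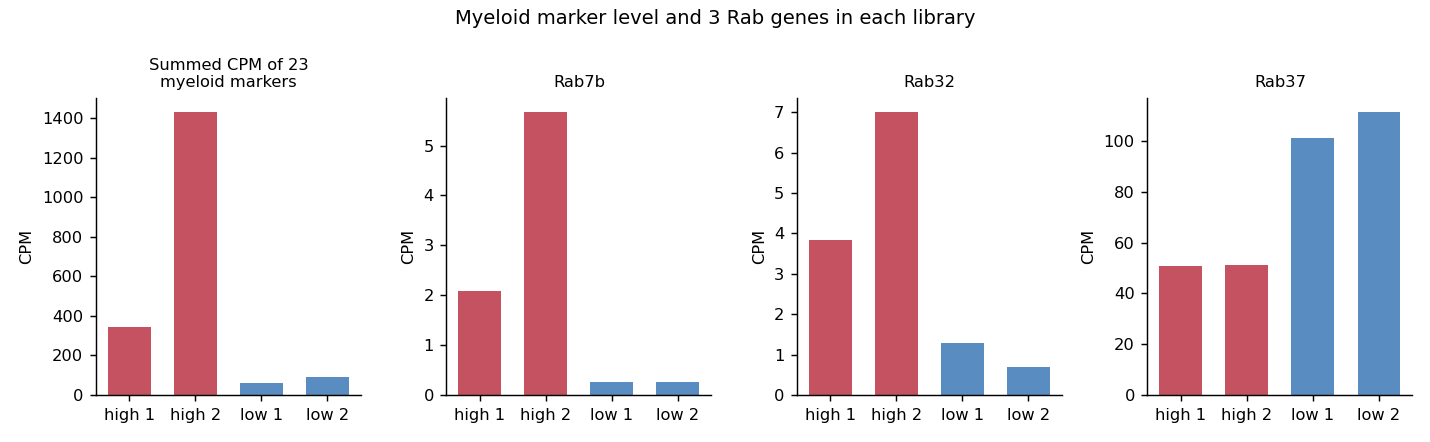
Bars give CPM in each library (CD63 high replicates 1 and 2 in red, CD63 low replicates 1 and 2 in blue) for the sum of 23 myeloid markers and for Rab7b, Rab32 and Rab37. CD63 high replicate 2 is the highest library for the marker sum, Rab7b and Rab32, while Rab37 is near 51 CPM in both CD63 high libraries.

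Rab32 was the called member with an upstream sequence in the RefSeq table (GRCm38.p6), which held 48 of the 59 genes. Its 250 bases before the RefSeq start (chr10:10558208-10558457, minus strand) are shown because they hold GAGGAAGT, a form of the purine-rich site known for the myeloid factor PU.1, in capitals and on the strand of the gene.
Rab32: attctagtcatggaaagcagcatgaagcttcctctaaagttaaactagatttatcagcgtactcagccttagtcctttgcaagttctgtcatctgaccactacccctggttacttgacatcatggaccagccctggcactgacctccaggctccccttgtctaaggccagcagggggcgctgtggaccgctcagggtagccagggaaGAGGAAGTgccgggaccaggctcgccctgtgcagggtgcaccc
The match spans bases 43 to 36 before that start, and the first exon in the deposited annotation begins 58 bases before it, so the match lies within that exon. GAGGAAGT on either strand occurred in 2.44% of all 32851 upstream windows of this length and in 2 of 60 windows of the Rab genes (Rab32 and Rab2b), some genes having several starts. Rab2b, the other Rab gene with a match, did not pass (log2 fold change -0.10, SE 0.33, edgeR adjusted p 0.938). Spi1, which encodes PU.1, was among the 19 myeloid markers that rose (125 and 271 counts after the high sort, 13 and 11 after the low sort). Whether PU.1 had a part in the level of Rab32 was not tested. A match of letters is a description and does not show a bound site, and this motif was chosen after the sequences were seen.

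Rab7 itself, the general GTPase of late endosomes and lysosomes, did not pass. It stood at 206 and 222 CPM in the CD63 high pair and 209 and 226 CPM in the CD63 low pair (log2 fold change -0.02, SE 0.19, edgeR adjusted p 0.980), with fully mixed groups. Rab7b held 0.0642% to 1.42% of the summed length-scaled level of the pair. Rab9, of traffic from late endosomes to the Golgi, was at 10.8 and 15.2 against 14.4 and 11.5 CPM, and its rarer relative Rab9b at 0.714 and 0.653 against 0.240 and 0.497 CPM per kilobase. Rab29, which recruits the kinase LRRK2 to membranes, was at 1.66 and 2.71 CPM in the CD63 high pair and 0.626 and 0.873 CPM in the CD63 low pair (1.53, SE 0.64, adjusted p 0.289). Rab29 and Rab9b were higher in both CD63 high libraries and did not pass. Rab39b, an endosomal and Golgi Rab best known from neurons, was at 15.5 to 21.3 CPM in the 4 libraries, and Rab39, its relative, at 1.36 to 2.01 CPM. Among the 8 tested genes of late endosomes and lysosomes 2 rose, none fell and 6 did not pass, where 2.5% of all tested genes rose and 0.287% fell. The median of the 8 was 0.44 on the log2 scale (-0.01 over all tested genes), but no gene lay near it. Rab7, Rab9, Rab39 and Rab39b ran from -0.09 to 0.0048. Rab9b, Rab29, Rab32 and Rab7b, all at no more than 7.01 CPM, ran from 0.88 to 3.87. Of these, Rab7b passed the filter on low counts only through its CD63 high libraries.

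The early endosome GTPases did not pass in either direction. Rab5a, which drives early endosome fusion, was at 44.0 and 58.1 CPM in the CD63 high pair and 72.3 and 72.7 CPM in the CD63 low pair (log2 fold change -0.51, SE 0.21, edgeR adjusted p 0.285). Both CD63 high libraries were lower, and they differed from each other by more than the CD63 low libraries did. Rab5b was at 15.6 and 16.3 against 19.4 and 21.5 CPM, and Rab5c at 12.9 and 20.01 against 19.3 and 19.0 CPM. Rab5a held 66.0% and 65.5% of the summed length-scaled level of the Rab5 trio in the CD63 high pair and 69.5% and 69.1% in the CD63 low pair, a difference in shares that was not tested. Rab21, which takes up integrins, was at 24.2 and 16.2 against 28.3 and 28.9 CPM (-0.50, SE 0.25, adjusted p 0.391). Rab22a stood at 61.3 to 75.2 CPM and its relative Rab31 at 3.03 to 6.21 CPM, with mixed groups. Rab24, linked to autophagy, was at 29.3 and 27.3 against 20.5 and 21.2 CPM (0.44, SE 0.22, adjusted p 0.387), but 62.4% of its exon bases are shared with Prelid1 on the opposite strand, and with the stated options reads in that stretch count for neither gene.

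Rab20, which acts in phagosome and endosome maturation and is known from macrophages, was the early endosome gene with the smallest p. It was at 11.9 and 11.6 CPM in the CD63 high pair and 6.00 and 6.44 CPM in the CD63 low pair. Replicates were tight and the groups apart, yet the log2 fold change of 0.92 (SE 0.28) did not pass (edgeR adjusted p 0.131), and it passed in none of the 12 other analyses, but did with the replicate numbers crossed. CD63 high replicate 2, the library with the largest myeloid marker sum, had 0.974 times the Rab20 level of replicate 1. What part myeloid cells had in the level of Rab20 was not tested. The upstream 250 bases of Rab20 (chr8:11478641-11478890, minus strand, GRCm38.p6) are shown for comparison with Rab32, with an E-box, CACGTG, in capitals.
Rab20: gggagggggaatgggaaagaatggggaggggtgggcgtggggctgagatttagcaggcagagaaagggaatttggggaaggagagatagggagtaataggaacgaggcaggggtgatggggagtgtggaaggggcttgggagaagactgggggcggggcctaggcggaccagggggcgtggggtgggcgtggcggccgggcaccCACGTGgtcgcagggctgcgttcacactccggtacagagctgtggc
The match spans bases 46 to 41 before the RefSeq start. The first exon in the deposited annotation begins 70 bases before that start, so this match also lies within that exon. CACGTG reads the same on both strands and occurred in 6.02% of all such windows and in 5 of 60 windows of the Rab genes, those of Rab20, Rab21, Rab23, Rab27a and Rab5a. The cyclic AMP response element TGACGTCA, also the same on both strands, occurred in 1.55% of all windows and in 2 of the 60, of Rab25 and Rab5a. Of the 5 genes with CACGTG, Rab20 had the higher CPM in CD63 high libraries and Rab21, Rab23, Rab27a and Rab5a the lower, and none of the 5 passed.

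**Figure D4:**
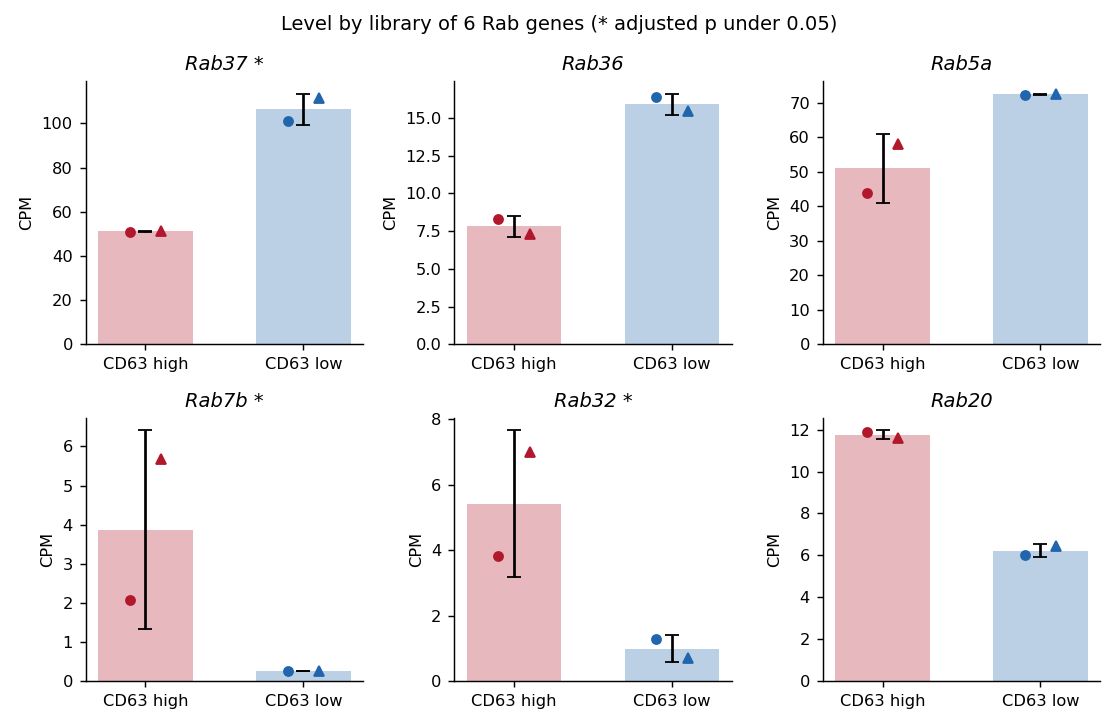
CPM of 6 Rab genes, with a bar for the mean and an error bar for the SD of 2 libraries per group, circles for replicate 1 and triangles for replicate 2. Rab37, Rab36 and Rab5a are lower and Rab7b, Rab32 and Rab20 higher in both CD63 high libraries, and an asterisk marks the 3 genes with an adjusted p under 0.05.

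None of the 12 tested GTPases of the ER and Golgi passed. Rab36, a Golgi Rab and relative of Rab34, came closest, at 8.30 and 7.33 CPM in the CD63 high pair and 16.4 and 15.4 CPM in the CD63 low pair (log2 fold change -1.03, SE 0.26, edgeR adjusted p 0.0678). Its CD63 low libraries had 2.04 times the level by the fit, and DESeq2 (adjusted p 0.0239) and the test without a filter on low counts (0.0184) called it, as did the analysis with the replicate numbers crossed. Over the 12 other analyses its adjusted p ran from 0.0184 to 0.266. The abundant members of this group differed little and did not pass, Rab2a at 328 and 385 against 378 and 389 CPM (-0.10, SE 0.19, adjusted p 0.876), Rab1a at 282 and 332 against 281 and 305 CPM (0.07, SE 0.19, adjusted p 0.922). Rab1b was at 137 and 175 against 172 and 165 CPM, and Rab6a, of retrograde transport and exit from the Golgi, at 88.0 and 82.7 against 87.4 and 87.5 CPM. Rab18 was at 99.6 and 101 CPM in the CD63 high pair and 112 and 120 CPM in the CD63 low pair, with no overlap. The other tested genes, Rab2b, Rab6b, Rab19, Rab33b, Rab34 and Rab43, spanned 1.08 to 42.0 CPM. Rab33b and Rab19 were lower in both CD63 high libraries, and the other 4 overlapped between the groups. The median log2 fold change of the 12 was -0.11, and their summed level held 45.9% to 47.1% of the family in each library.

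In the group of transport from the Golgi to the surface and of recycling, 15 genes were tested and none passed (median log2 fold change 0.02). Rab11a, of the recycling endosome, was at 124 and 168 CPM in the CD63 high pair and 147 and 128 CPM in the CD63 low pair (0.08, SE 0.21, edgeR adjusted p 0.916), and Rab14, between Golgi and endosomes, at 128 and 141 against 142 and 123 CPM. Rab8a, of carriers to the plasma membrane and the cilium, was at 105 and 94.7 against 87.0 and 95.7 CPM. Rab10, which serves the same route and the insulin-stimulated delivery of glucose transporters in fat cells, was at 102 and 109 against 124 and 123 CPM. Of these 4, Rab10 alone had groups that did not overlap. Rab25, an epithelial relative of Rab11, was at 47.1 and 47.2 against 49.5 and 35.5 CPM.

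Several rarer genes of the same group had groups apart without passing. Rab8b was at 8.43 and 8.99 CPM in the CD63 high pair and 5.27 and 4.67 CPM in the CD63 low pair (log2 fold change 0.81, SE 0.31, edgeR adjusted p 0.242), and Rab13, of cell junctions and polarised delivery, at 2.68 and 2.49 against 1.154 and 1.18 CPM (1.145, SE 0.53). Rab40b and Rab40c, which carry a SOCS box, went the other way. Rab40b was at 1.56 and 2.53 against 5.17 and 3.08 CPM (-1.01, SE 0.48), and Rab40c at 13.8 and 14.7 against 22.3 and 16.8 CPM (-0.46, SE 0.25). The edgeR adjusted p was 0.355 for Rab13, 0.362 for Rab40b and 0.445 for Rab40c. Rab11b, Rab12, Rab4a, Rab4b and Rab17 overlapped between the groups, and Rab35, of recycling to the plasma membrane, was higher in CD63 high libraries (7.79 and 8.05 against 5.83 and 7.29 CPM). Of the 2 cilium genes, Rab28 was at 60.7 and 81.2 against 85.4 and 67.0 CPM, and Rab23, known from hedgehog signalling, at 4.09 and 4.44 against 5.04 and 7.65 CPM (-0.58, SE 0.36, adjusted p 0.513).

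Close relatives shared the length-scaled level unevenly. There were 16 subfamilies with at least 2 members, and in 7 of them the same member held over 90% in every library: Rab2a, Rab6a, Rab7, Rab8a, Rab27a, Rab33b and Rab39b. Rab27a held 99.7% to 99.99% of the Rab27 pair, and Rab2a 99.1% to 99.2% of the Rab2 pair. Others were mixed. Rab1a held 49.9% and 47.8% of the Rab1 pair in the CD63 high pair and 44.1% and 47.2% in the CD63 low pair. In the Rab3 group, Rab3a held 47.9% to 55.0%, Rab3d 28.2% to 38.5% and Rab3b 11.2% to 16.8%, with Rab3c at no more than 0.207%. Rab11a held 82.1% and 83.3% of its pair in the CD63 high pair and 79.5% and 80.9% in the CD63 low pair. Rab25, the epithelial relative of Rab11, was not counted in that pair. It stood at 28.2 and 28.2 against 29.6 and 21.2 CPM per kilobase, so the separation is that of Rab11a and Rab11b alone. Rab40c held 85.2% and 79.1% against 73.7% and 78.0%. Shares were not tested.

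**Figure D5:**
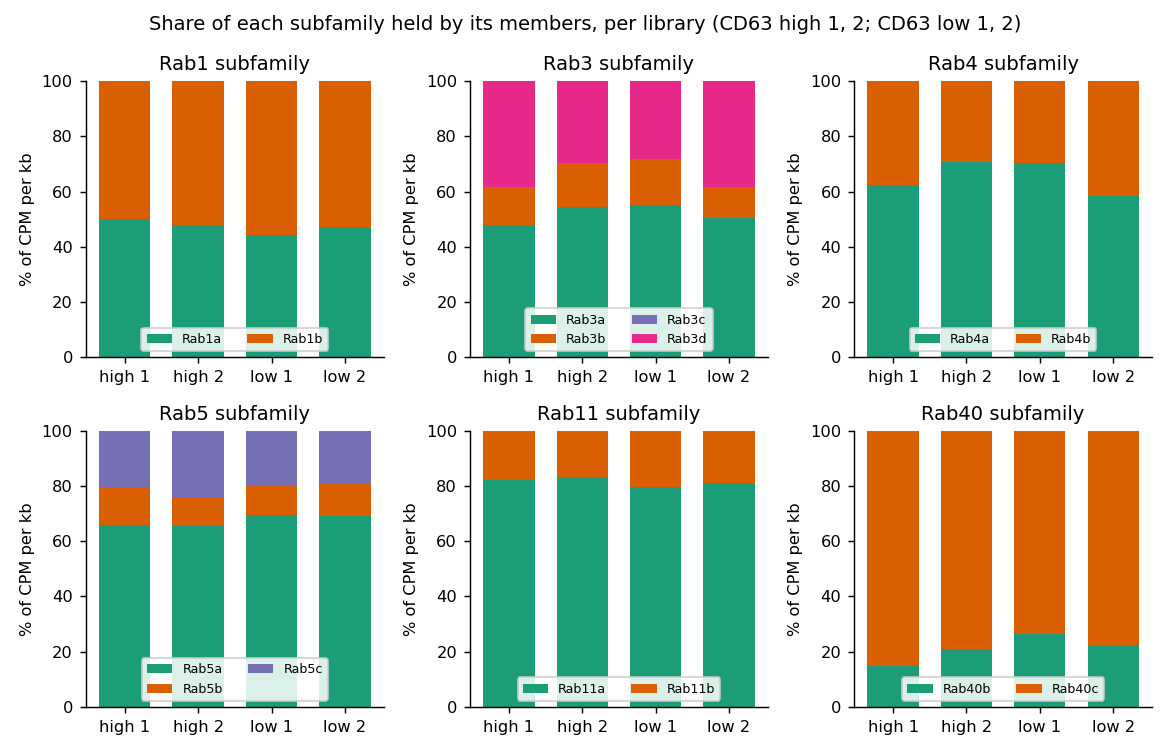
Stacked bars give the percentage of the summed CPM per kilobase of 6 subfamilies held by each member in each library (CD63 high replicates 1 and 2, CD63 low replicates 1 and 2). Rab1a runs from 44.1% to 49.9%, Rab3d from 28.2% to 38.5%, Rab4b from 29.3% to 41.7%, Rab5a from 65.5% to 69.5% and Rab40b from 14.8% to 26.3%. The groups do not overlap for Rab5a, Rab5c and Rab3c, or for the members of Rab1, Rab11 (drawn without Rab25) and Rab40.

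Some levels carry extra uncertainty from shared sequence. Exons of 47 of the 59 genes overlap no other gene in the tables, but over 50% of the exon bases of Rab24, Rab43 (75.4%) and Rab4b (64.97%) do, and with the stated options reads there count for neither gene. CPM per kilobase was still divided by the full exon length. It can thus be too low for these genes, as can the share of Rab4b in the Rab4 pair. Of the 50-base stretches in GENCODE M21 transcripts, 57.0% recur in another gene for Rab2b, 22.9% for Rab20 and 21.2% for Rab33b, although these 3 share under 5% of their exon bases, and under 5% do so for 44 members. Rab37, Rab7b, Rab32 and Rab36 had no recurring stretch.

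Genes of the Rab cycle and its surroundings were described from lists of 148 genes, of which 132 were tested. The lists hold exchange factors, activating proteins, effectors, related release proteins, membrane cycling factors and Rab-like proteins. Over the 132 tested genes, 2 fell, none rose and 130 did not pass, which is 1.52% against the 2.79% of all tested genes. Both that fell come from the list drawn up around the granule GTPases Rab3 and Rab27, with 13 tested genes. This list takes in effectors and other release proteins, and a place in it does not mean that a protein binds a Rab. Sytl4, granuphilin, which binds Rab27a on insulin granules, was at 93.5 and 98.2 CPM in the CD63 high pair and 179 and 230 CPM in the CD63 low pair. It fell by 1.09 on the log2 scale (SE 0.20, edgeR adjusted p 0.0178), and missed the threshold in 1 of the 12 other analyses, with library size as the only scaling (0.111). Rims3, a small member of the RIM group of active zone proteins, was at 20.7 and 20.8 against 37.9 and 40.8 CPM (-0.92, SE 0.21, adjusted p 0.0471). It missed the threshold in 7 of the 12 other analyses: without CD63 high replicate 1 (0.170), without replicate 2 of that group (0.166), without CD63 low replicate 2 (0.0830), with the replicate block (0.0631), with library size only (0.158), with limma-voom (0.0511) and among genes with a mean of at least 100 counts (0.0507). Of these 13 genes 11 had log2 fold changes below 0 (51.4% of all tested genes did), with a median of -0.37. Lower values in both CD63 high libraries without overlap were seen for 6 (46.2%, against 22.2% of all tested genes). Unc13d alone was higher without overlap (7.69%, against 23.8%), with 18 and 19 against 2 and 0 counts. It had a log2 fold change of 4.22 (SE 1.34, edgeR adjusted p 0.143) and was tested only through its CD63 high libraries.

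The other regulators did not pass. Among 35 tested GTPase activating proteins, 30 had log2 fold changes below 0 (median -0.37, against -0.01 over all tested genes), with the smallest p for Tbc1d14 (-0.78, SE 0.26, edgeR adjusted p 0.155) and Tbc1d4 (-1.14, SE 0.43, adjusted p 0.223), the Rab10 regulator known as AS160. The activating proteins had 10 members lower without overlap (28.6%, against 22.2% of all tested genes) and 1 higher (2.86%, against 23.8%). For the 30 tested exchange factors the median was -0.19, and Dennd4c, which acts on Rab10, did not pass (-1.09, SE 0.32, edgeR adjusted p 0.114). The 41 tested effectors of endosomal, Golgi and recycling Rabs had a median of -0.10. Among them Rab11fip3, a Rab11 effector, was at 8.68 and 5.35 against 13.7 and 15.7 CPM (-1.07, SE 0.31, adjusted p 0.107), and Lrrk1 was near the detection limit, with 16 and 27 against 4 and 1 counts (3.23, SE 1.148, adjusted p 0.196). Prenylation and cycling factors (8 tested, median 0.14) included Rabggtb, a subunit of the transferase that attaches the lipid anchor (0.33, SE 0.22, adjusted p 0.562), and the escort protein gene Chml (1.45, SE 0.94, adjusted p 0.534). Rab-like proteins (5 tested, median -0.09) included Rabl6 (-0.23, SE 0.20, adjusted p 0.682) and Rabl3 (-0.24, SE 0.25, adjusted p 0.743). Without CD63 low replicate 1, Dennd4c and Rab11fip3 passed (adjusted p 0.0175 and 0.0465), as they did without CD63 high replicate 1 (0.0216 and 0.0162).

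At a mean level of at least 20 CPM, where counting error is small, 25 Rab genes remained. Of these, 22 (88.0%) had log2 fold changes within 0.5 of 0, beside 84.9% of all tested genes at that level. The exceptions were Rab37, Rab5a and Rab21, each lower in CD63 high cells, and Rab37 alone passed the test. Over all 53 tested Rab genes the corresponding share was 67.9%, beside 69.7% of all tested genes. The spread of the family was thus close to that of the tested genes at large, with Rab7b, Rab32 and Rab37 as the members past the threshold.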

How the data were processed

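Raw counts per gene name were deposited by the authors, 1 table per library, made with featureCounts 1.6.2 per the file headers: paired-end fragments, grouping by gene name, the Cell Ranger mm10 3.0.0 annotation, no strand option and no option for multiple alignments. STAR 2.6.0c is named, without a role, per the submitters' processing notes. Per the labels' protocols, low-input cDNA (SMARTer v4, Nextera XT) was sequenced. No molecular identifiers are named, so counting limits cover counting error only.

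The main test kept genes that pass filterByExpr (minimum count 10, minimum total 15), 13241 in all. It used edgeR 4.0.16 (R 4.3.3) with TMM factors, a quasi-likelihood fit and F test of CD63 high over CD63 low without covariates, and Benjamini-Hochberg adjustment over all tested genes at 0.05. Each standard error is the absolute log2 fold change divided by the root of F. The script was tested on simulated data. DESeq2 1.42.0 and limma 3.58.1 served as alternatives. Members and lists were chosen with earlier results of these data known. Motifs were chosen after the sequences were seen. Full statistics were given for called members, the 8 smallest p per direction, and 12 granule, endosome and ER Rabs. For regulators they were given for called genes, the 2 smallest p per list and Unc13d. The values of 1 regulator that this rule names are not reported here. Further genes were named by level.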

Additional observations from a re-analysis of the deposited data

How the results depend on the processing

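The test called 369 genes, and 686 with DESeq2, 940 without a filter on low counts, 67 with library size as the only scaling and 616 with the replicate number as a block. Leaving out 1 library gave 450 to 769 genes, the most without CD63 low replicate 1. Rab genes called were 3, against 0 with library size only, 1 with limma-voom and 1 among genes with a mean of at least 100 counts, where Rab7b and Rab32 were not tested. Leaving out 1 library gave 0 to 3 Rab genes, 0 without CD63 high replicate 2, and the replicate block gave 3. With the replicate numbers crossed, chosen after seeing the data, 942 genes and 5 Rab genes were called, Rab20 and Rab36 beside the other 3. Regulators and effectors called were 2, against 4 with DESeq2, 6 without a filter, 0 with library size only, 1 with limma-voom, 1 among genes with a mean of at least 100 counts and 1 to 7 without 1 library. The cause of these changes was not tested. The median log2 fold change of the Rab genes, -0.09, ran from -0.11 to 0.04 over the 12 alternatives set out at the start, and lay above 0 without CD63 high replicate 1 (0.04) or CD63 low replicate 1 (0.0080). Over 37 named genes 8 of 435 log2 fold changes changed sign, each of a gene that did not pass. Leaving out 1 library, the values ran from -0.16 to 0.29 for Rab11a, -0.054 to 0.18 for Rab1a, -0.22 to 0.0072 for Rab2a, -0.42 to 0.080 for Rab3b, -0.47 to 0.057 for Rab3d and -0.078 to 0.052 for Rab7. Among genes with a mean of at least 100 counts Rab7 was at 0.015. Same-numbered libraries deviated from their group means with a correlation of -0.101 (-0.28 over the 7554 genes with a mean log2 CPM over 3), and no label ties the numbers to a shared mouse or day. The deposited tables number the CD63 low libraries otherwise than their titles do, so the blocked and crossed values rest on numbers of uncertain meaning. The replicate block ended the calls of Rims3 and Cd63 (adjusted p 0.0631 and 0.218), and no other call among the named genes changed under it. The fewest counts among tested Rab genes were those of Rab26 and Rab27b, with 1 to 23 per library, and their standard errors were 0.96 and 1.16 on the log2 scale.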
